A study of Mus musculus with 15 samples.

Results

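The innate receptors that detect bacterial products, and the proteins that hand endotoxin to them, were described here in the kidneys of male C57BL/6 mice through 10 genes. They are Lbp, Cd14 and Ly96, the Toll-like receptor genes Tlr4, Tlr2, Tlr1, Tlr3 and Tlr7, and the adaptor genes Myd88 and Ticam1. They were taken by symbol from the 23866 gene symbols of the counts table, and each of the 10 was found and passed the filter on low counts. The study sequenced kidney RNA after carbon tetrachloride (CCl4, a solvent that injures liver and kidney), ethanol (EtOH), the combination, or vehicle. The CCl4+EtOH group (3 mice) was given intraperitoneal CCl4 over 6 weeks and then EtOH over 4 weeks. The titles of these samples repeat CCl4 before EtOH, so the labels do not settle whether CCl4 went on during the EtOH weeks. The EtOH group (4 mice) was given olive oil, the vehicle of CCl4, over 6 weeks and then EtOH over 4 weeks. The CCl4 group (4 mice) was given CCl4 over 6 weeks, and replicates 3 and 4 stayed on a reduced dose over a further 4 weeks. The olive oil group (3 libraries) was given the vehicle alone over 6 weeks. EtOH and the 4 additional weeks therefore cannot be told apart in any comparison with olive oil. The labels used here give no age, dose or route of EtOH, and they name no sorting of cells, so each library mixes tubule, vessel and immune cells of the kidney.

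Lipopolysaccharide (LPS, endotoxin) of Gram-negative bacteria is picked up from blood or fluid by LPS-binding protein, the product of Lbp, and passed to CD14. CD14 loads it onto MD-2, the product of Ly96, which sits on TLR4. TLR2 pairs with TLR1 or TLR6 to detect bacterial lipopeptides at the cell surface, while TLR3 and TLR7 detect double-stranded and single-stranded RNA in endosomes. TLR4, TLR2, TLR1 and TLR7 signal through MyD88 to NF-kB, TLR3 signals through TRIF, the product of Ticam1, and TLR4 uses both. In the kidney these receptors are known from macrophages and dendritic cells and, for several of them, from tubule cells.

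Promoter sequence is shown for 3 of these genes, which were picked by their levels. They are a receptor and an adaptor that rose and an adaptor that did not pass the test. RefSeq promoter windows of GRCm38.p6 were matched for 5 of the 10 genes, and for Tlr2, Myd88 and Ticam1 the longest stretch that lies in no annotated exon is printed 5′ to 3′ on the gene's own strand, the minus strand in each case. Capitals mark a match to the NF-kB consensus or to the interferon regulatory factor motif GAAANNGAAA, both searched on both strands.
Tlr2, chr3:83841768-83841858: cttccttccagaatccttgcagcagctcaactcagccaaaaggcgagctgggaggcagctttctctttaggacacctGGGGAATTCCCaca
Myd88, chr9:119340042-119340268: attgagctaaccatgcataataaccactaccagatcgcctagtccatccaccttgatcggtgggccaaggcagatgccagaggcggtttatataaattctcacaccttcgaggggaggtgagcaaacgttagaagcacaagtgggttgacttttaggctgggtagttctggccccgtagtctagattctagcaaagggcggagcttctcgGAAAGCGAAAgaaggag
Ticam1, chr17:56276787-56277017: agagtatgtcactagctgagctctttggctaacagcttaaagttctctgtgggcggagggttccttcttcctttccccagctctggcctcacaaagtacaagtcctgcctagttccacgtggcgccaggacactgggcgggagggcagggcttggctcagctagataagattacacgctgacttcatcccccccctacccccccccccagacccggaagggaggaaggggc
The Tlr2 stretch held 2 overlapping NF-kB consensus matches, which run from base -173 to base -163 counted from the annotated start. The Myd88 stretch held 1 interferon regulatory factor match, from base -40 to base -31, and the Ticam1 stretch held neither motif. The Tlr3 window held 1 NF-kB consensus match, from base -211 to base -202, in a part that is annotated as exon and is not printed. The Tlr1 windows, also not printed, held neither motif, although Tlr1 was among the genes that rose over olive oil. The motifs were not tested for a link with the levels. The NF-kB consensus occurred in 3.90% and the interferon regulatory factor motif in 2.98% of 32851 promoter windows of the same 250 bases. A match describes letters and is not evidence of binding in these kidneys.

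Library totals ran from 16.4 to 23.5 M counts, and the 10 genes together held between 0.00948% and 0.0312% of a library's counts. Levels are given as CPM, the count of a gene in a library scaled to 1 M counts, with TMM scaling of library size. The kidney label held in every library, since Slc34a1, the phosphate transporter of the proximal tubule, stood at 1544 CPM or more in each. Its levels were 1544, 1916 and 5747 CPM in CCl4+EtOH replicates 1, 2 and 3, with a mean of 3069 ± 2327 CPM (SD, n = 3). The mean was 6563 ± 912 CPM (SD, n = 3) in olive oil kidneys. The lowest EtOH library had 5032 CPM and the lowest CCl4 library 5956 CPM. EtOH replicates 1, 2 and 3 carried adrenal transcripts, with 884, 751 and 1198 CPM summed over 10 adrenal markers, against 8.75 CPM in EtOH replicate 4 and at most 26.0 CPM in any library of the other groups. Within the CCl4+EtOH group, replicate 3 stood apart from replicates 1 and 2. Genes of tubule injury summed to 39934, 29205 and 5370 CPM in CCl4+EtOH replicates 1, 2 and 3, against 1134 to 1806 CPM in olive oil kidneys.

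In CCl4+EtOH kidneys 8 of the 10 genes were higher than in olive oil kidneys at an adjusted p under 0.05, and none was lower. Without CCl4+EtOH replicate 2 the count was 5. Among all 16105 genes tested 18.9% were called higher and 16.6% lower in the same comparison. The median log2 fold change of the 10 genes was 1.12, beside 0.02 over all genes tested. The rise was largest for Cd14 and Tlr2, intermediate for Lbp, Tlr1, Tlr7 and Tlr4, and small for Ly96 and Myd88. Tlr3 and Ticam1 did not pass the threshold. For 7 genes the CCl4+EtOH and olive oil libraries did not overlap, the exceptions being Myd88, Tlr3 and Ticam1, and 22.9% of all genes tested lay entirely higher in this way. Each library is bulk RNA, in which more cells of a type and more RNA per cell cannot be told apart.

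**Figure D1:**
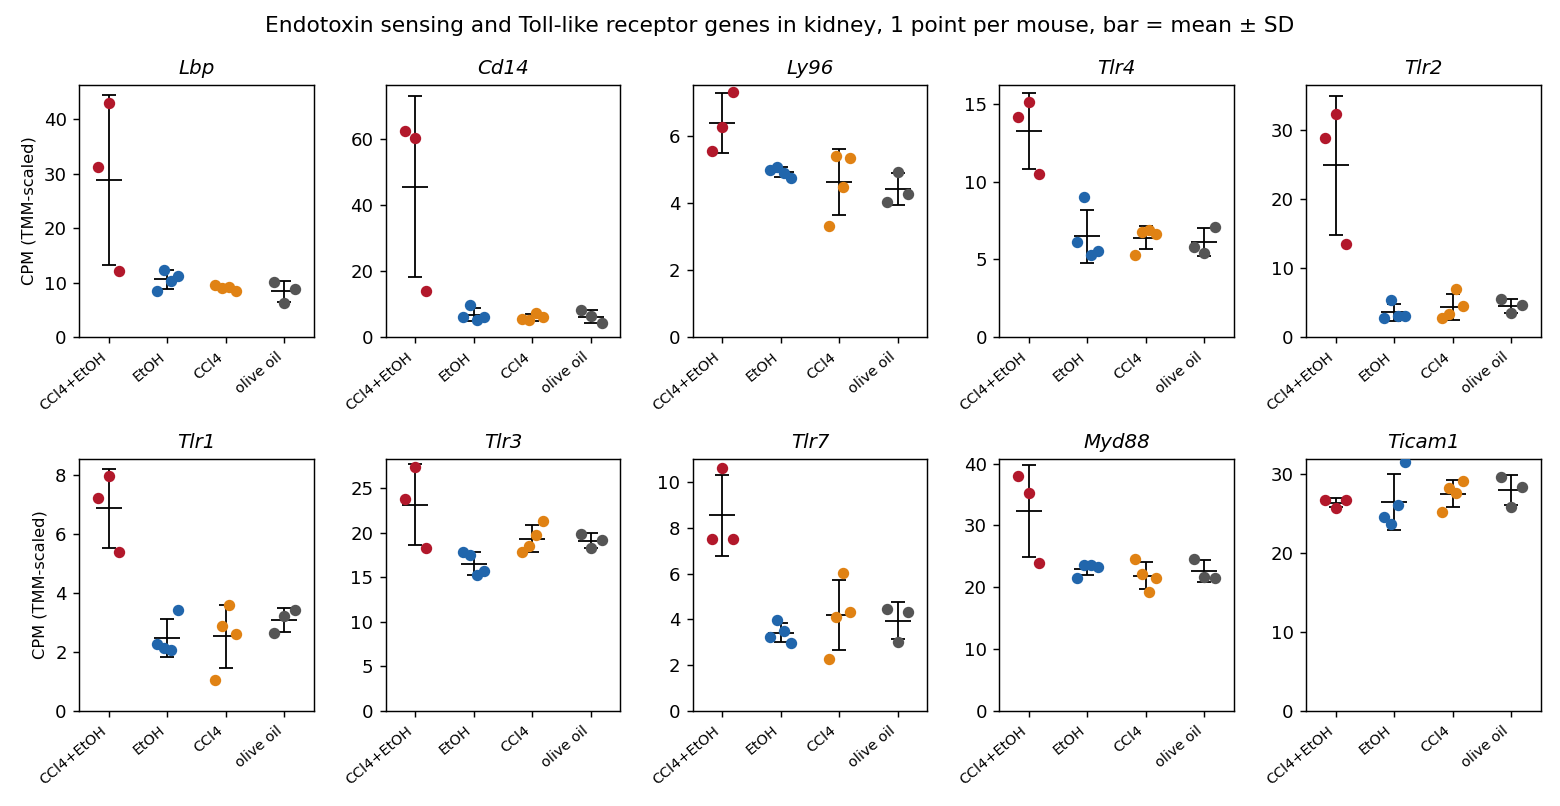
Level of each of the 10 genes in CPM (vertical axis, linear, from 0) in the CCl4+EtOH (n = 3), EtOH (n = 4), CCl4 (n = 4) and olive oil (n = 3) groups, with 1 point per mouse and a bar for the mean ± SD. All 3 CCl4+EtOH points lie above the 11 others for Cd14, Ly96, Tlr4, Tlr2, Tlr1 and Tlr7, as they did for 10.2% of all genes tested, and CCl4+EtOH replicate 3, the rightmost red point, is the lowest of its group for Cd14, Lbp and Tlr2.

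The carriers of endotoxin are described first. Cd14, the surface co-receptor that transfers LPS to the receptor complex, reached 62.3, 60.2 and 13.99 CPM in the CCl4+EtOH libraries. In the other groups it stood at 5.90, 9.79, 5.25 and 6.15 CPM after EtOH, at 5.39, 5.03, 7.21 and 6.02 CPM after CCl4, and at 8.04, 6.32 and 4.23 CPM after olive oil. Every CCl4+EtOH library was above every other library, with replicate 3 far below its group's other members. The log2 fold change over olive oil was 2.88 ± 0.46 (SE, adjusted p = 0.000725), the largest of the 10 genes. It was 3.30 without CCl4+EtOH replicate 3 and at least 2.60 whichever library was left out.

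Lbp, a secreted protein known mainly from hepatocytes and acute-phase responses, had 31.3, 43.0 and 12.1 CPM in CCl4+EtOH kidneys. It had 8.38, 12.4, 10.4 and 11.2 CPM after EtOH, 9.48, 8.93, 9.22 and 8.45 CPM after CCl4, and 10.03, 6.32 and 8.78 CPM after olive oil. CCl4+EtOH replicates 1 and 2 were above all other libraries, while replicate 3 lay above the CCl4 and olive oil libraries and inside the range of the EtOH libraries. Over olive oil its log2 fold change was 1.79 ± 0.34 (SE, adjusted p = 0.00167), and it was 2.15 without CCl4+EtOH replicate 3. Of 9 hepatocyte markers, 1 was called higher, the fibrinogen chain Fgb, and 1 lower, the apolipoprotein Apoa2. The shares of all genes in the same comparison were 18.9% higher and 16.6% lower. Summed hepatocyte markers were 295, 426 and 177 CPM in CCl4+EtOH replicates 1, 2 and 3, the same order as Lbp. Their median was 301 CPM in olive oil kidneys. The part of hepatocyte transcripts in the Lbp level was not tested. Alb, which defines hepatocytes, did not follow the order of Lbp, with 37.5, 89.5 and 40.7 CPM in CCl4+EtOH replicates 1, 2 and 3. Alb averaged 55.9 ± 29.2 CPM (SD, n = 3) in CCl4+EtOH kidneys and 113 ± 37.7 CPM (SD, n = 3) in olive oil kidneys.

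Ly96, the co-receptor subunit that holds LPS on TLR4, differed little. It had 5.56, 6.29 and 7.34 CPM in CCl4+EtOH kidneys, 4.75 to 5.09 CPM after EtOH, 3.32 to 5.43 CPM after CCl4, and 4.05, 4.95 and 4.28 CPM after olive oil. The CCl4+EtOH libraries were above all others, and CCl4+EtOH replicate 3 was the highest library of all, unlike in Cd14 and Lbp. Over olive oil its log2 fold change was 0.53 ± 0.19 (SE, adjusted p = 0.0409). That call was lost in 8 of the 14 fits that left out a library, among them those without any of the olive oil libraries, with an adjusted p of up to 0.120. It was also lost with no filter on low counts (adjusted p = 0.0534) and in a fit of only these groups (adjusted p = 0.0898).

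Among the receptors, Tlr4, the endotoxin receptor itself, had 14.1, 15.1 and 10.5 CPM in CCl4+EtOH kidneys. It had 6.10, 9.002, 5.25 and 5.52 CPM after EtOH, 5.29, 6.76, 6.85 and 6.63 CPM after CCl4, and 5.81, 5.39 and 7.10 CPM after olive oil. The CCl4+EtOH libraries did not overlap those of any other group, and the spread within CCl4+EtOH was narrower than for Cd14, with a coefficient of variation of 18.3% against 60.0%. The log2 fold change over olive oil was 1.12 ± 0.21 (SE, adjusted p = 0.00145), and it lay between 1.02 and 1.26 when single libraries were left out.

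Tlr2, the lipopeptide receptor, had 29.0, 32.3 and 13.5 CPM in CCl4+EtOH kidneys. It had 2.83, 5.44, 2.99 and 3.11 CPM after EtOH, 2.69, 3.41, 6.91 and 4.50 CPM after CCl4, and 5.46, 3.45 and 4.71 CPM after olive oil. CCl4+EtOH replicate 3, the lowest of its group, was above CCl4 replicate 3, the highest library of the other groups. The change over olive oil was 2.46 ± 0.38 on the log2 scale (SE, adjusted p = 0.000630), a ratio of 5.51.

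Tlr1, the partner of TLR2, had 7.23, 7.99 and 5.397 CPM in CCl4+EtOH kidneys, and at most 3.42, 3.60 and 3.41 CPM in the EtOH, CCl4 and olive oil groups. The CCl4+EtOH libraries were above all others here too, and the log2 fold change over olive oil was 1.15 ± 0.33 (SE, adjusted p = 0.0161). The call was lost without CCl4+EtOH replicate 2 (adjusted p = 0.0593) and without olive oil replicate 1 (adjusted p = 0.0582). Of its 50-base stretches 13.6% also occur in Tlr6, so some reads of these paralogs may have been split or dropped by the counting.

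The RNA receptors differed from each other. Tlr7, the endosomal sensor of single-stranded RNA, had 7.51, 10.6 and 7.51 CPM in CCl4+EtOH kidneys, 2.98 to 3.96 CPM after EtOH, 2.28 to 6.03 CPM after CCl4, and 4.46, 3.004 and 4.34 CPM after olive oil. Here CCl4+EtOH replicate 3 was level with replicate 1, and the log2 fold change over olive oil was 1.12 ± 0.28 (SE, adjusted p = 0.00744). Tlr3, the sensor of double-stranded RNA, had 23.8, 27.3 and 18.3 CPM in CCl4+EtOH kidneys and 19.9, 18.2 and 19.2 CPM in olive oil kidneys. CCl4+EtOH replicate 3 lay inside the olive oil range, and the log2 fold change of 0.28 ± 0.13 (SE) did not pass the threshold (adjusted p = 0.109). Without that library it was 0.42 and passed (adjusted p = 0.00683). The antisense gene Gm45542 shares 381 exonic bases with Tlr3, or 7.32% of them, and whether the counting used strand is not given here.

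The adaptor Myd88, which serves every TLR but TLR3, had 37.9, 35.2 and 23.9 CPM in CCl4+EtOH kidneys. It had 21.5 to 23.6 CPM after EtOH, 19.2 to 24.5 CPM after CCl4, and 24.6, 21.7 and 21.5 CPM after olive oil. Replicates 1 and 2 of CCl4+EtOH were above all other libraries and replicate 3 lay within the olive oil range. The log2 fold change over olive oil was 0.52 ± 0.14 (SE, adjusted p = 0.0127), but the call was lost without CCl4+EtOH replicate 1 (adjusted p = 0.0638), without replicate 2 (adjusted p = 0.0507) and in a fit of only these groups (adjusted p = 0.0824). Acaa1a, a peroxisomal thiolase gene on the opposite strand, shares 290 exonic bases with Myd88, or 11.3% of them. It averaged 118 ± 35.4 CPM (SD, n = 3) in CCl4+EtOH kidneys and 186 ± 31.7 CPM (SD, n = 3) in olive oil kidneys, the opposite direction to Myd88.

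Ticam1, the adaptor of TLR3 and of the endosomal arm of TLR4, had 26.7, 25.7 and 26.8 CPM in CCl4+EtOH kidneys and 29.7, 25.9 and 28.4 CPM in olive oil kidneys. The libraries of all 4 groups lay between 23.7 and 31.6 CPM and overlapped. Its log2 fold change over olive oil was -0.08 ± 0.10 (SE, adjusted p = 0.564).

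The comparison of CCl4+EtOH with EtOH asks how kidneys given CCl4 as well as EtOH differ from those given EtOH, and here 8 of the 10 genes were higher and none lower, against 18.1% of all genes called higher. Cd14 had a log2 fold change of 2.75 ± 0.41 (SE, adjusted p = 0.000558) and Tlr2 one of 2.79 ± 0.35 (SE, adjusted p = 0.000261). Tlr1 followed with 1.48 ± 0.31, Lbp with 1.45 ± 0.30, Tlr7 with 1.32 ± 0.26 and Tlr4 with 1.03 ± 0.19. Tlr3, which had not passed against olive oil, passed here with 0.49 ± 0.12 (SE, adjusted p = 0.00779), and EtOH kidneys had 15.2 to 17.8 CPM of it. Myd88 had 0.49 ± 0.13 (SE, adjusted p = 0.0115), a call lost without CCl4+EtOH replicate 1 (adjusted p = 0.0756) or 2 (adjusted p = 0.0599), and Tlr3 lost its call without replicate 2 (adjusted p = 0.0557). Ly96 did not pass (0.37 ± 0.17, adjusted p = 0.111). For 8 genes the CCl4+EtOH and EtOH libraries did not overlap, Lbp and Ticam1 being the exceptions, and 17.1% of all genes lay entirely higher. With EtOH replicate 4, the library nearly free of adrenal transcripts, as the only EtOH library, 2 of the 10 genes passed, both higher, against 0.864% of all genes called higher in that fit.

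Against CCl4 alone, 7 of the 10 genes were higher in CCl4+EtOH kidneys and none lower, against 18.7% of all genes called higher. Cd14 had a log2 fold change of 2.95 ± 0.41 (SE, adjusted p = 0.000351), Tlr2 one of 2.52 ± 0.35 (SE, adjusted p = 0.000305) and Lbp one of 1.68 ± 0.31 (SE, adjusted p = 0.00135). Ly96, at 0.46 ± 0.17 (SE, adjusted p = 0.0528), and Tlr3, at 0.26 ± 0.12 (SE, adjusted p = 0.107), fell short of the threshold, which Ly96 passed in DESeq2 (adjusted p = 0.0467) and limma-voom (adjusted p = 0.0382). CCl4 replicates 3 and 4 had been treated for 10 weeks in all, as long as the CCl4+EtOH mice. Against those mice alone 6 genes were higher, against 11.8% of all genes called higher in that fit, and Tlr7 was the one lost, at 0.72 ± 0.28 (SE, adjusted p = 0.0771). The 3 comparisons share the CCl4+EtOH libraries, so their calls are not separate evidence of that group's levels.

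**Figure D2:**
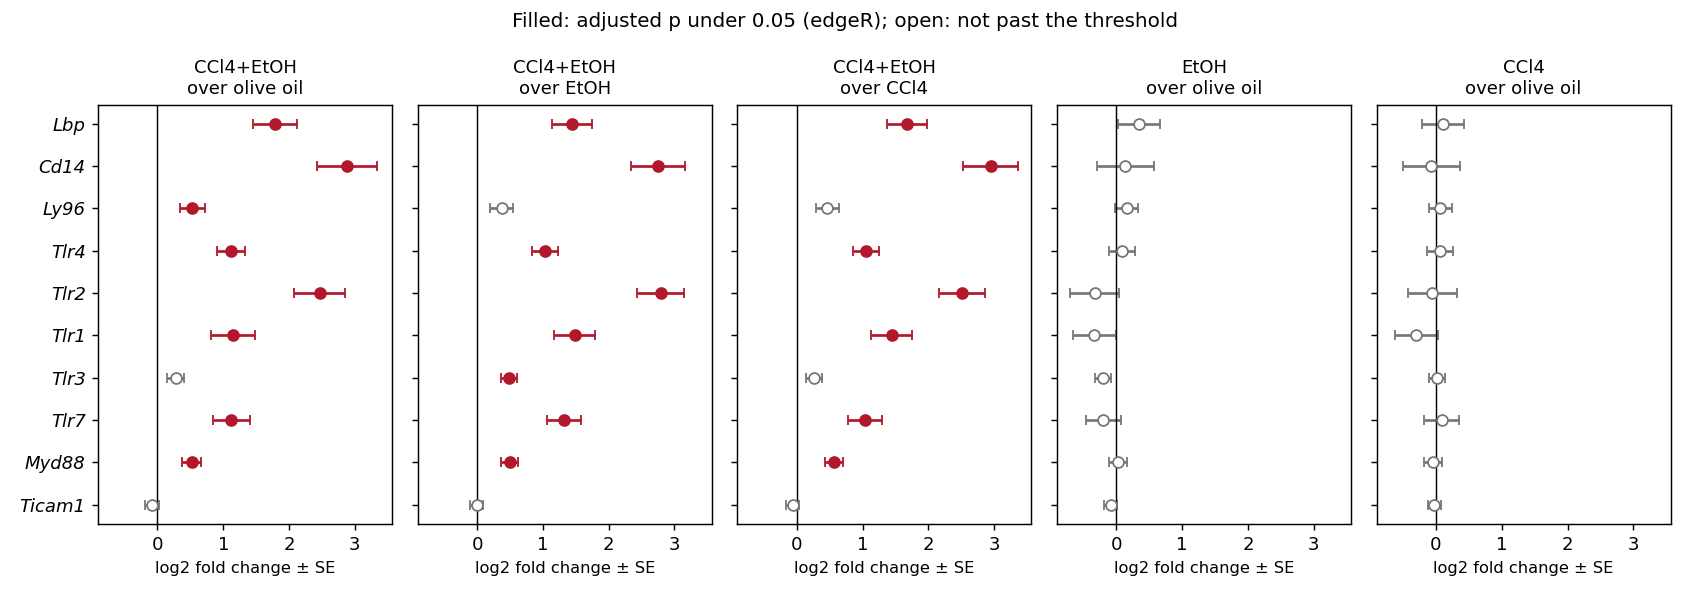
Log2 fold change ± SE (horizontal axis) of the 10 genes in 5 comparisons, from edgeR, with filled points past an adjusted p of 0.05. The rises stand in the 3 panels with CCl4+EtOH, and no point of EtOH over olive oil or of CCl4 over olive oil is filled.

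Neither agent alone gave a call. In EtOH against olive oil 0 of the 10 genes passed in edgeR, DESeq2 or limma-voom, where 0.168% of all genes were called in edgeR. Likewise 0 had an unadjusted p under 0.05 in edgeR, against 10.4% of all genes. The changes ran from -0.33 ± 0.32 (SE) for Tlr1 to 0.34 ± 0.32 (SE) for Lbp. Tlr3 was the gene whose libraries did not overlap, with 17.8, 17.5, 15.2 and 15.7 CPM after EtOH and 19.9, 18.2 and 19.2 CPM after olive oil (-0.21 ± 0.12, SE, adjusted p = 0.617), while 6.69% of all genes lay entirely lower. In CCl4 against olive oil 0 of the 10 passed in the same 3 tools, where 0% of all genes were called in edgeR, and 0 had an unadjusted p under 0.05, against 3.97% of all genes. Those changes ran from -0.30 ± 0.32 (SE) for Tlr1 to 0.11 ± 0.32 (SE) for Lbp. The SE of Cd14 was 0.43 in EtOH against olive oil and 0.44 in CCl4 against olive oil, and log2 differences of that size were not detectable here. EtOH and CCl4 were not tested against each other.

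A test of the difference of differences asked whether the step between CCl4+EtOH and EtOH was larger than the step between CCl4 and olive oil. It was larger for 4 of the 10 genes, against 5.49% of all genes called higher in this test. Tlr2 had a log2 difference of 2.84 ± 0.51 (SE, adjusted p = 0.0111), Cd14 of 2.81 ± 0.59 (SE, adjusted p = 0.0183), Tlr1 of 1.78 ± 0.45 (SE, adjusted p = 0.0287) and Tlr4 of 0.97 ± 0.28 (SE, adjusted p = 0.0452). Tlr7 (1.23 ± 0.37, adjusted p = 0.0536), Lbp (1.33 ± 0.44, adjusted p = 0.0707), Myd88 (0.54 ± 0.19, adjusted p = 0.0819) and Tlr3 (0.47 ± 0.17, adjusted p = 0.0934) did not pass. In DESeq2 Tlr7 (adjusted p = 0.0206) and Lbp (adjusted p = 0.0255) passed, and in a fit that split the CCl4 mice by duration Tlr7 did (adjusted p = 0.0348). The number of genes past the threshold was 8 without CCl4+EtOH replicate 3, 1 without CCl4+EtOH replicate 1 or 2 or olive oil replicate 1, and 2 without EtOH replicate 3 or olive oil replicate 2 or 3. Tlr2 was the gene that passed whichever library was left out, while Cd14, Tlr1 and Tlr4 lost their calls without CCl4+EtOH replicate 1 or 2. Cd14 also lost it without olive oil replicate 1 (adjusted p = 0.0569) and under limma-voom (adjusted p = 0.100), Tlr1 without EtOH replicate 3 or any of the olive oil libraries, and Tlr4 in 12 of the 14 fits. Tlr4 also lost its call with no filter on low counts (adjusted p = 0.0544), under limma-voom (adjusted p = 0.0553) and in the fit that split the CCl4 mice (adjusted p = 0.0526).

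The 3 CCl4+EtOH mice were not alike in these genes. Replicate 3 was the lowest of its group for 7 of the 10 genes, and the mean of replicates 1 and 2 was 4.38 times its level for Cd14, 3.06 times for Lbp and 2.27 times for Tlr2. The same ratio was 1.41 for Tlr1, 1.40 for Tlr3, 1.39 for Tlr4, 1.53 for Myd88, 1.21 for Tlr7, 0.98 for Ticam1 and 0.81 for Ly96. Replicate 3 was nevertheless above all 11 libraries of the other groups for 6 genes, namely Tlr1, Tlr2, Tlr4, Tlr7, Cd14 and Ly96, where 16% of all genes tested did so. With replicate 3 as the only CCl4+EtOH library, a setting added after the data were seen, 0 of the 10 genes passed in edgeR against olive oil, where 2.38% of all genes were called higher, with log2 fold changes of 1.57 for Tlr2, 1.18 for Cd14, 0.78 for Tlr4 and 0.54 for Lbp. Summed proximal tubule markers followed the same split, with 6667 and 6849 CPM in replicates 1 and 2 and 16881 CPM in replicate 3, against 14294 to 17238 CPM in olive oil kidneys. The part of tubule injury in these gene levels was not tested.

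Macrophage markers moved with the receptors. Over all genes tested 18.9% were called higher and 16.6% lower in CCl4+EtOH than in olive oil kidneys. Of 15 macrophage markers tested, 12 were higher and 1, the phagocytic receptor gene Mertk, was lower. The summed level was 828, 969 and 712 CPM in CCl4+EtOH kidneys, 274.6 to 419 CPM after EtOH, 290 to 625 CPM after CCl4, and 444, 317 and 377 CPM after olive oil. Of the defining markers, Emr1, which encodes F4/80, averaged 42.8 ± 4.09 CPM (SD, n = 3) in CCl4+EtOH and 13.5 ± 2.44 CPM (SD, n = 3) in olive oil kidneys, while Csf1r, the receptor for macrophage colony-stimulating factor, stood at 120 ± 15.7 CPM and 112 ± 21.3 CPM in the same groups. Neutrophil markers summed to 17.1 to 23.7 CPM in CCl4+EtOH kidneys, 8.23 to 197 CPM after EtOH, 3.42 to 45.5 CPM after CCl4, and 6.58 to 18.2 CPM after olive oil. EtOH replicate 4 (197 CPM) and CCl4 replicate 3 (45.5 CPM) were above every CCl4+EtOH library, as was EtOH replicate 2 (32.3 CPM). The granule gene Mpo was scarce in every group, at most 0.0864 CPM in any CCl4+EtOH library. It stood at 0.19 CPM in EtOH replicate 4 and was highest in CCl4 replicate 4, at 0.912 CPM.

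**Figure D3:**
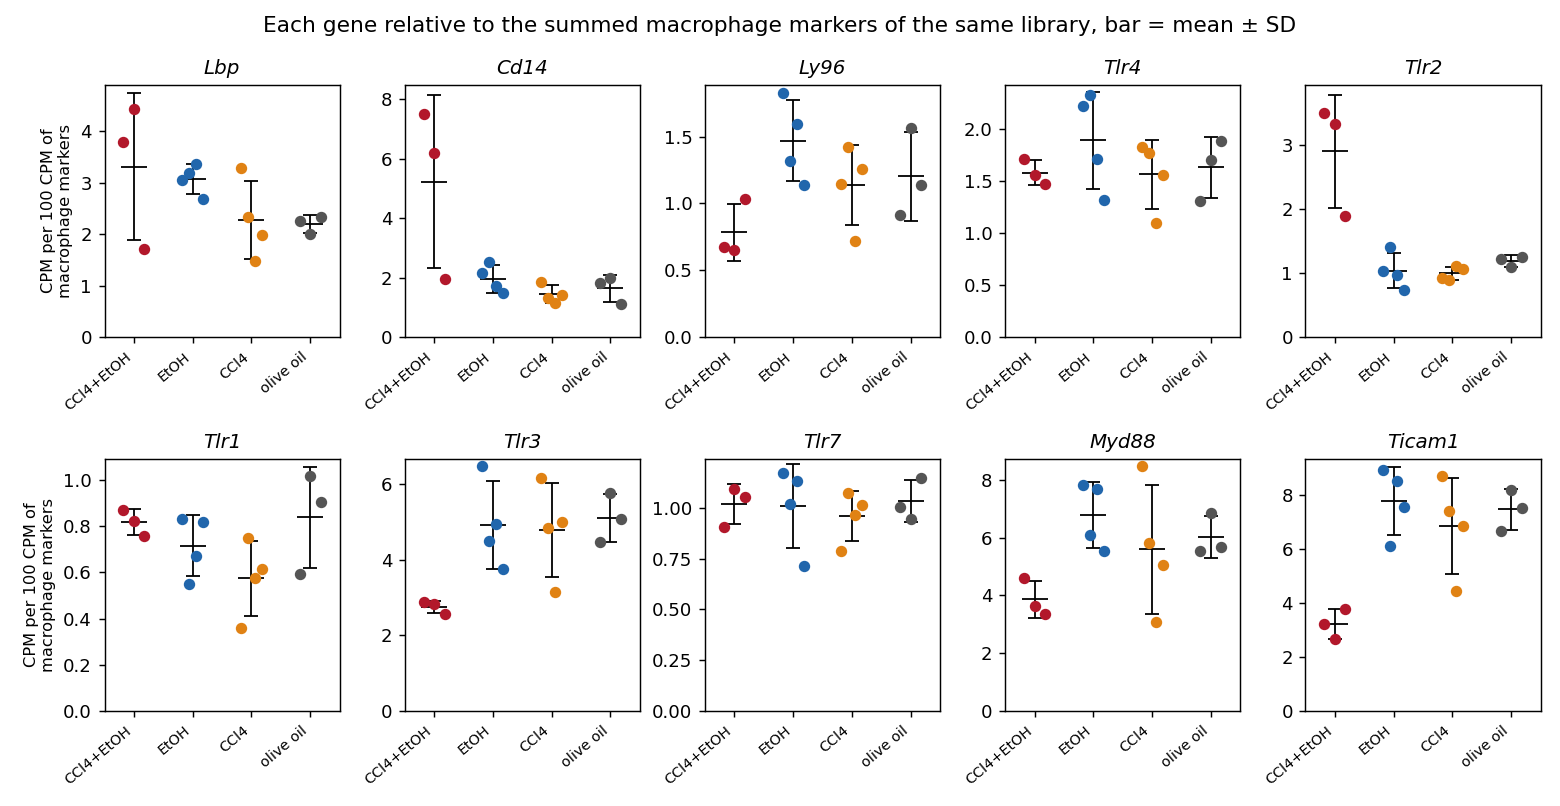
CPM of each gene per 100 CPM of the summed macrophage markers of the same library (vertical axis, linear, from 0), with 1 point per mouse and a bar for the mean ± SD in the CCl4+EtOH, EtOH, CCl4 and olive oil groups. Tlr4, Tlr1 and Tlr7 overlap between groups on this scale, Tlr2 stays higher in every CCl4+EtOH library, and Cd14 is higher in 2 of the 3.

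Set against 100 CPM of summed macrophage markers, the genes differed in how the groups compared. Tlr7 had 1.02 ± 0.10 CPM (SD, n = 3) in CCl4+EtOH kidneys and 1.03 ± 0.10 CPM (SD, n = 3) in olive oil kidneys on this scale. Tlr4 had 1.58 ± 0.12 and Tlr1 0.82 ± 0.06 CPM in CCl4+EtOH kidneys, against 1.63 ± 0.29 and 0.84 ± 0.22 CPM in olive oil kidneys, so that these 3 genes overlapped between the groups. Tlr2 had 3.497, 3.34 and 1.89 CPM in CCl4+EtOH kidneys, above the highest value of 1.40 CPM in the other 3 groups. Cd14 had 7.52, 6.21 and 1.97 CPM in CCl4+EtOH kidneys and 1.81, 1.99 and 1.12 CPM in olive oil kidneys, so replicate 3 lay inside the olive oil range. Lbp had 3.78, 4.44 and 1.70 CPM in CCl4+EtOH kidneys and 2.26, 1.99 and 2.33 CPM in olive oil kidneys, and its groups overlapped. Ly96 had 0.78 ± 0.21 CPM in CCl4+EtOH and 1.20 ± 0.33 CPM in olive oil kidneys, and these groups overlapped too. Tlr3, Myd88 and Ticam1, which are well expressed in olive oil kidneys, were lower per macrophage marker in every CCl4+EtOH library than in every olive oil library, at 2.76 ± 0.16, 3.86 ± 0.64 and 3.22 ± 0.55 CPM against 5.11 ± 0.64, 6.03 ± 0.72 and 7.46 ± 0.76 CPM. The ratio describes libraries and depends on which markers are summed. The part of macrophage number in the levels of these genes was not tested.

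Levels of different genes were compared per kilobase of annotated exon, with lengths from GENCODE M21 on GRCm38 and not from the mm9 build of the counts. By the mean over CCl4+EtOH kidneys Cd14 came first, at 26.3 ± 15.8 CPM per kb (SD, n = 3), followed by Myd88 at 12.6 ± 2.88, Ticam1 at 8.83 ± 0.19, Tlr2 at 8.27 ± 3.34, Ly96 at 6.27 ± 0.87, Lbp at 5.97 ± 3.23 and Tlr3 at 4.44 ± 0.87. In olive oil kidneys the adaptors led, with Ticam1 at 9.36 ± 0.64 and Myd88 at 8.78 ± 0.68 CPM per kb (SD, n = 3), which overlapped within their spread. Ly96 at 4.33 ± 0.46, Tlr3 at 3.67 ± 0.16 and Cd14 at 3.58 ± 1.10 came next, and Lbp at 1.73 ± 0.39 and Tlr2 at 1.51 ± 0.34 did not differ beyond their spread. Tlr4, Tlr7 and Tlr1 were the lowest in both groups, at 2.38 ± 0.44, 2.09 ± 0.44 and 2.05 ± 0.40 CPM per kb in CCl4+EtOH kidneys and 1.10 ± 0.16, 0.96 ± 0.20 and 0.92 ± 0.12 CPM per kb in olive oil kidneys. By these means Cd14 stood in place 1 of 10 in CCl4+EtOH and in place 5 in olive oil kidneys, and Tlr2 in place 4 and place 7 of the same groups. Place 1 of Cd14 held in CCl4+EtOH replicates 1 and 2. In these 2 libraries Tlr2 was in place 3, at 9.61 and 10.7 CPM per kb, ahead of Ticam1 at 8.94 and 8.60 CPM per kb. In replicate 3, at 8.08 CPM per kb, Cd14 came after Myd88 at 9.29 and Ticam1 at 8.95 CPM per kb, and Tlr2 was in place 5.

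The rest of the pathway was followed in gene lists chosen with earlier results of these data known. Of the 7 other Toll-like receptor genes, 4 rose in CCl4+EtOH over olive oil and 1 fell, with a median log2 fold change of 1.20. Over all genes 18.9% were called higher and 16.6% lower. Tlr8, an endosomal receptor related to TLR7, averaged 4.44 ± 0.44 CPM (SD, n = 3) in CCl4+EtOH and 0.89 ± 0.02 CPM (SD, n = 3) in olive oil kidneys, a log2 fold change of 2.30 ± 0.30 (SE, adjusted p = 0.000202). Tlr13, a mouse sensor of bacterial ribosomal RNA, rose by 1.81 ± 0.42 (SE, adjusted p = 0.00487), Tlr6, the other partner of TLR2, by 1.59 ± 0.33 (SE, adjusted p = 0.00265), and Tlr9, the sensor of unmethylated CpG DNA, by 1.20 ± 0.35 (SE, adjusted p = 0.0173). Tlr12, a mouse receptor for the protozoan protein profilin, went the other way, with 17.9 ± 7.97 CPM (SD, n = 3) in CCl4+EtOH and 40.5 ± 5.01 CPM (SD, n = 3) in olive oil kidneys, a log2 fold change of -1.18 ± 0.25 (SE, adjusted p = 0.00314). Tlr12 was also lower on average than in EtOH kidneys, at 32.7 ± 6.61 CPM (SD, n = 4), and than in CCl4 kidneys, at 33.2 ± 2.99 CPM (SD, n = 4). The highest CCl4+EtOH library, at 26.9 CPM, was above the lowest EtOH library, at 23.0 CPM. Tlr5, the flagellin receptor, at 0.98 ± 0.45 (SE), and Tlr11, at -0.99 ± 0.52 (SE), did not pass (adjusted p = 0.104 and 0.151).

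Of 9 chaperones and accessory proteins tested, 3 rose and 1 fell in CCl4+EtOH over olive oil, with a median of 0.01, beside 18.9% higher and 16.6% lower over all genes. Unc93b1, the chaperone that carries TLR3, TLR7, TLR9 and related receptors to endosomes, averaged 55.1 CPM in CCl4+EtOH and 27.7 CPM in olive oil kidneys, a log2 fold change of 0.99 ± 0.11 (SE, adjusted p = 5.89e-05). Ly86 and Cd180, which encode the MD-1 and RP105 pair related to MD-2 and TLR4, rose by 1.74 ± 0.30 and 1.18 ± 0.37 (SE, adjusted p = 0.000858 and 0.0224). Cd36, a scavenger receptor that works with TLR2 and also takes up fatty acids, fell to 353 CPM in CCl4+EtOH kidneys, against 908 CPM in olive oil kidneys, a log2 fold change of -1.36 ± 0.32 (SE, adjusted p = 0.00600). The general TLR chaperones Hsp90b1 and Cnpy3 had changes of 0.39 ± 0.19 and 0.01 ± 0.08 (SE), the anion channel gene Lrrc8a -0.15 ± 0.12, the alarmin gene Hmgb1 -0.06 ± 0.09 and the LPS-deacylating enzyme gene Aoah -0.004 ± 0.11, none past the threshold. Bpi, which encodes an LPS-neutralising protein, did not pass the filter on low counts.

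**Figure D4:**
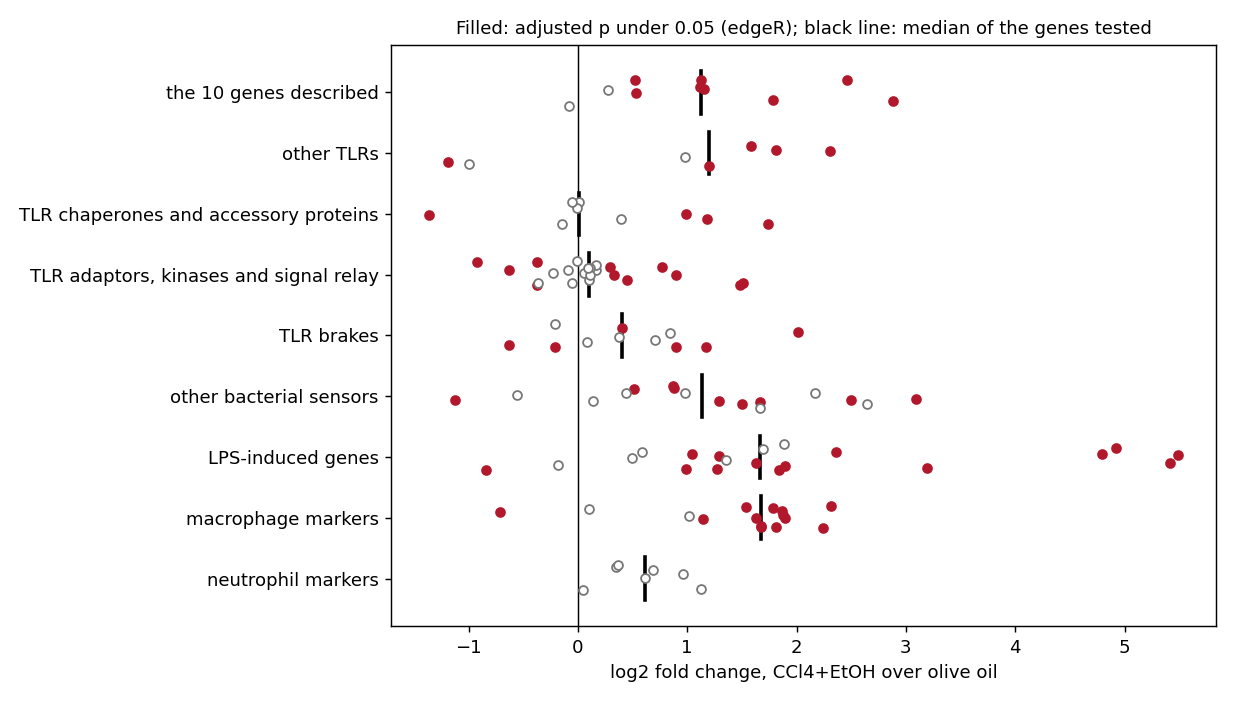
Log2 fold change of CCl4+EtOH over olive oil (horizontal axis) for the 10 genes and 8 gene lists (rows), with 1 point per gene tested, filled where adjusted p was under 0.05, and a black line at the list's median. The medians lie at 1.12 for the 10 genes, 0.01 for chaperones and accessory proteins, 0.10 for the signal relay and 1.66 for LPS-induced genes.

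Of 23 adaptors, kinases and relay proteins below the receptors, 7 rose and 4 fell, with a median of 0.10. The count that fell is near the 16.6% of all genes called lower, while 18.9% of all genes were called higher. Ikbke, the inducible kinase related to TBK1, rose by 1.51 ± 0.19 (SE, adjusted p = 0.000182), and Tirap, which bridges MyD88 to TLR4 and TLR2, by 0.77 ± 0.16 (SE, adjusted p = 0.00278). Ecsit, a TRAF6-binding protein that also assembles mitochondrial complex I, fell to 46.8 CPM in CCl4+EtOH kidneys, against 88.6 CPM in olive oil kidneys (-0.92 ± 0.11, SE, adjusted p = 0.000144). Chuk, the IKK-alpha kinase, had a log2 fold change of -0.63 ± 0.15 (SE, adjusted p = 0.00555). Of 11 brakes on the pathway tested, 4 rose and 2 fell, with a median of 0.40, and here too the count that fell is near the 16.6% of all genes. Tnfaip3, which encodes the ubiquitin-editing enzyme A20, rose by 2.02 ± 0.32 (SE, adjusted p = 0.000718), Irak3, the inhibitory IRAK-M, by 1.18 ± 0.20 (SE, adjusted p = 0.000879) and the NF-kB inhibitor gene Nfkbia by 0.89 ± 0.15 (SE, adjusted p = 0.000833). Sigirr, an inhibitory membrane receptor of the family, had -0.63 ± 0.15 (SE, adjusted p = 0.00687).

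Other sensors of bacteria and the genes that LPS induces in macrophages were followed as well. Of 16 other sensors, 8 rose and 1 fell, with a median of 1.13, beside 18.9% higher and 16.6% lower over all genes. Casp4, the intracellular LPS sensor known as caspase-11 in mice, rose by 2.50 ± 0.43 (SE, adjusted p = 0.00104), the fungal glucan receptor gene Clec7a by 1.67 ± 0.30 (SE, adjusted p = 0.00127), the flagellin sensor gene Naip5 by 1.498 ± 0.31 (SE, adjusted p = 0.00271) and the inflammasome adaptor gene Pycard by 0.88 ± 0.21 (SE, adjusted p = 0.00641). Nlrc4, which forms the inflammasome with NAIP proteins, was the one that fell, at -1.13 ± 0.34 (SE, adjusted p = 0.0187), a gene named after its value was seen. It averaged 4.38 ± 1.74 CPM (SD, n = 3) in CCl4+EtOH and 4.69 ± 1.66 CPM (SD, n = 4) in EtOH kidneys. Against EtOH or CCl4 alone, no gene of this list was called lower. Of 20 LPS-induced genes tested out of 25 listed, 13 rose and 1 fell, with a median of 1.66. Over all genes 18.9% were called higher and 16.6% lower. The LPS-induced genes summed to 940, 877 and 459 CPM in CCl4+EtOH replicates 1, 2 and 3. The sums were 369 to 533 CPM after EtOH, 377 to 456 CPM after CCl4 and 411 to 457 CPM after olive oil. Replicate 3 thus lay within the range of the EtOH libraries. In EtOH against olive oil 0 of the 20 LPS-induced genes passed, where 0.168% of all genes were called. Their median log2 fold change was 0.48 in that comparison. In edgeR 7 of the 20 had an unadjusted p under 0.05 there, in either direction, against 10.4% of all genes. Lcn2, a siderophore-binding protein that is also a tubule injury gene, averaged 266 ± 194 CPM (SD, n = 3) in CCl4+EtOH and 6.02 ± 3.93 CPM (SD, n = 3) in olive oil kidneys, a log2 fold change of 5.49 ± 0.80 (SE, adjusted p = 0.000526). The chemokine gene Cxcl1 rose by 4.92 ± 0.79 (SE, adjusted p = 0.000772), the cytokine-signal inhibitor gene Socs3 by 3.19 ± 0.51 (SE, adjusted p = 0.000737) and the NF-kB cofactor gene Nfkbiz by 2.37 ± 0.32 (SE, adjusted p = 0.000303). Sod2, the mitochondrial superoxide dismutase, was the member that fell, at -0.84 ± 0.15 (SE, adjusted p = 0.00115), and it was also named after its value was seen. Other stimuli than LPS induce these genes too, and no measure of endotoxin was among the data.

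Genes with the most similar profile were found by the root mean square distance between log2 CPM profiles over the 14 libraries, each centred on its own mean, among 14985 genes. The libraries are shared, and for most of these genes the profile is largely the contrast of CCl4+EtOH with the rest. Nearest to Cd14 lay Socs3, at a distance of 0.25, then Slc25a24 and Sytl2. Nearest to Lbp lay the cell-cycle inhibitor gene Cdkn1a, at 0.19, then Map3k1 and Sbno2. Nearest to Tlr2 lay Il1rl1, the receptor for interleukin-33, at 0.30, then the complement gene C1qc and Fcrls. For Tlr7 they were Apobec1, at 0.20, Pik3cd and Slamf9, for Tlr1 5430435G22Rik, at 0.27, Lat2 and Ms4a6b, and for Tlr4 Stk17b, at 0.14, Zfp36l1 and B2m. Genes with a smaller range had closer neighbours, namely Ets2, at 0.07, Anxa4 and Ybx3 for Myd88, Srl, at 0.13, Wdfy3 and Trio for Ly96, Nipsnap3b, at 0.08, Lxn and Ddx41 for Tlr3, and Commd8, at 0.06, Heatr3 and Faf1 for Ticam1.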

How the data were processed

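Kidney RNA of 14 mice was analysed in the 4 treatment groups. The authors deposited raw counts of reads by gene symbol, with no normalization and a column for each of these 14 mice. The submitters' processing notes name GSNAP and mm9, without versions. The counting program, the annotation and strand use are not given in these sources. The fourth olive oil sample of the 15 in the series is not analysed here. Of 23893 rows, 27 were named by a date instead of a symbol and were left out, with 0.168% to 0.209% of a library's counts.

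The test was edgeR's robust quasi-likelihood test (version 4.0.16, R 4.3.3) on TMM-scaled counts, fitted to all libraries by group after filterByExpr. Adjusted p-values are from this test, by Benjamini-Hochberg over 16105 genes at a threshold of 0.05, unless another tool is named. The SE was taken as the log2 change over the square root of its F statistic. Alternatives were DESeq2 1.42.0, its size factors in edgeR, limma-voom (limma 3.58.1), no filter on low counts, fits of 5 groups or of only the groups compared, and each library left out in turn. The procedure was tested on simulated data for the comparisons between groups, and not for the difference of differences. Each simulated gene had the same spread in every group, unlike the CCl4+EtOH group, where replicate 3 stood apart. Libraries of a group differed by more than sampling noise, with a chi-square per gene of 10.3 or more. The labels do not tell whether mice of a group shared a cage or day, so p-values measure the spread between these samples.

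The 10 genes and the lists were chosen with earlier results of these data known. Named genes were the 10, up to 4 of each list with the smallest p in CCl4+EtOH against olive oil, every measured gene of the other Toll-like receptors and the accessory proteins, and for each of the 10 the 3 genes with the most similar profile. Profiles used log2 CPM with a prior count of 2, among genes whose mean reached 1 CPM in a group.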

Additional observations from a re-analysis of the deposited data

Results flagged for a closer look

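In 20 groups of 4 libraries checked for a library that stands apart from the other 3, chance alone flags about 1 in 20, and 3 were found. Tlr1 in EtOH replicate 4 was at 3.42 CPM, against 2.06 to 2.28 CPM in the other EtOH libraries, and this is the EtOH library nearly free of adrenal transcripts. Its neutrophil markers summed to 197 CPM, against 8.23, 32.3 and 13.1 CPM in EtOH replicates 1, 2 and 3, and the part of either difference in the Tlr1 level was not tested. Tlr2 in EtOH replicate 2 was at 5.44 CPM, against 2.83 to 3.11 CPM in the other EtOH libraries. Tlr4 in CCl4 replicate 1 was at 5.29 CPM, against 6.63 to 6.85 CPM in the other CCl4 libraries.

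For 4 genes the step between CCl4+EtOH and EtOH differed from the step between CCl4 and olive oil in edgeR's test of the difference. The log2 difference was 1.78 for Tlr1 (adjusted p = 0.0287), 2.84 for Tlr2 (adjusted p = 0.0111), 0.97 for Tlr4 (adjusted p = 0.0452) and 2.81 for Cd14 (adjusted p = 0.0183). In this test 5.49% of all genes were called higher. All 3 CCl4+EtOH libraries were above the 11 others for each of these genes, as they were for 10.2% of all genes tested. When each library was left out in turn, the call was lost in 3 of the 14 fits for Cd14, in 6 for Tlr1 and in 12 for Tlr4.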

How the results depend on the processing

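With 3 to 4 libraries per group, single libraries move the counts of calls. Leaving out each library in turn, the genes called ran from 3904 to 7417 in CCl4+EtOH against olive oil (5706 with all libraries), from 3195 to 7417 against EtOH (5514), from 3480 to 7396 against CCl4 (5610), the lowest counts being those without CCl4+EtOH replicate 1 or 2, from 3 (without olive oil replicate 3) to 154 (without CCl4+EtOH replicate 3) in EtOH against olive oil (27), and from 292 (without olive oil replicate 1) to 4881 (without CCl4+EtOH replicate 3) in the test of the difference of steps (1468). Of the 10 genes, 5 to 8 passed against olive oil, with 5 without CCl4+EtOH replicate 2, 6 to 8 against EtOH, 7 to 8 against CCl4 and 1 to 8 in the difference of steps. In fits of only the groups compared, 3276 genes were called against olive oil, 3390 against EtOH and 94 in EtOH against olive oil. A fit of 5 groups called 62 genes in EtOH against olive oil. DESeq2 called 348 genes in EtOH against olive oil, 1 in CCl4 against olive oil and 2525 in the difference of steps, and limma-voom left 2 of the 10 genes there.

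With the EtOH group reduced to its replicate 4, 335 genes and 2 of the 10 were called against EtOH, 1 gene in EtOH against olive oil, and 3 genes and 0 of the 10 in the difference of steps. The log2 change in EtOH against olive oil was then 0.15 for Tlr1, -0.14 for Tlr4, -0.0027 for Cd14 and 0.18 for Ticam1, whose difference of steps was -0.25. With CCl4+EtOH replicate 3 as the only library of its group, a setting added after the data were seen, 865 genes and 0 of the 10 were called against olive oil, 294 and 1 against EtOH, 565 and 1 against CCl4, 183 in EtOH against olive oil, and 32 and 0 in the difference of steps. Tlr3 then changed by -0.062 over olive oil and -0.075 over CCl4, and Ticam1 by 0.0139 over EtOH. A lone library is assumed in these fits to vary like the other groups. With all libraries, Ticam1 changed by 0.0135 over EtOH under limma-voom.

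When each library was left out in turn, directions turned among the 10 genes only for changes that had passed no test. Ticam1 ran from -0.053 to 0.091 over EtOH and from -0.031 to 0.11 in the difference of steps. In EtOH against olive oil, Tlr4 ran from -0.12 to 0.21, Cd14 from -0.10 to 0.35 and Myd88 from -0.012 to 0.089. In CCl4 against olive oil, Tlr2 ran from -0.36 to 0.12, Tlr3 from -0.033 to 0.053, Tlr4 from -0.018 to 0.19, Tlr7 from -0.14 to 0.29, Cd14 from -0.28 to 0.15, Ly96 from -0.019 to 0.20, Lbp from -0.059 to 0.26, Myd88 from -0.11 to 0.017 and Ticam1 from -0.075 to 0.021. The cause of these shifts was not tested. No paired analysis was possible because the groups share no title numbers. Bulk libraries do not separate cell number from RNA per cell, and the labels do not separate EtOH from the 4 additional weeks.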
